A study of Homo sapiens with 12 samples.

Results

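The genes described here are 33 transcriptional targets of the tumour suppressor p53 other than CDKN1A, taken as the rows of the count tables whose symbol is on a fixed list of names, out of 25369 genes listed. Of the 33, 31 passed the filter on low counts and were tested, and the death receptor gene TNFRSF10A and the mitochondrial quality control gene SPATA18 did not. They were followed in U2OS cells, a human osteosarcoma line with wild-type p53, that had been made into stable Tet-On lines carrying the empty vector (pTRE), wild-type E2F1 (WT), or E2F1 with an arginine-to-lysine change (R109K) or a pair of them (R111/113K, called KK). All 4 lines, pTRE included, had doxycycline at 1 μg/ml for 24 hours, and each was sampled as 3 biological replicates of poly(A)-selected RNA. There was 1 line per construct, whether a line was 1 clone or a pool is not given in the sources used here, and what separates 2 lines besides the construct cannot be told apart from the construct. The residue changed in R109K is a site of the methyltransferase PRMT1 and those changed in KK are sites of PRMT5, so the comparisons ask how E2F1, and E2F1 that lacks each arginine methylation site, alters the levels of these transcripts.

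p53 is a transcription factor held at a low level by the ubiquitin ligase MDM2, and stress signals free it to bind paired decamer elements in its target genes. The targets arrest the cell cycle (GADD45A, BTG2), repair DNA (XPC, DDB2, POLH), lower oxidative stress (sestrins), kill the cell through death receptors (FAS, TNFRSF10B), or switch p53 off again (PPM1D). E2F1 is a cell cycle transcription factor that is also linked to p53 through ARF, a product of CDKN2A that blocks MDM2, and U2OS cells are known for silenced CDKN2A. U2OS cells are also known to carry a truncating mutation of PPM1D, which makes its phosphatase more stable.

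Sequence was examined in the promoter windows of RefSeq (GRCh38.p14, 250 bases before to 50 bases after a transcription start), which held 40 windows of 26 members. The 7 members without an entry were GADD45A, PHLDA3, ASCC3, TP53INP1, TNFRSF10A, TNFRSF10B and TNFRSF10C. The E2F site TTTCCCGC, searched on both strands, occurred in 3 of the 40 member windows (1 each of XPC, AEN and CYFIP2) and in 1.63% of all 35116 windows. The other E2F form searched, TTTGGCGC, occurred in none of the members and in 0.652% of all windows. The p53 decamer consensus, searched by name on both strands, occurred in 7 of the 40 member windows and in 6.63% of all windows. These were 1 window each of AEN, DDB2, FAS, FDXR, PLK2, RAP2B and SESN1. A pair of decamers with a spacer of at most 13 bases was present in 1 of the 40 member windows, that of DDB2, and in 0.028% of all windows. That DDB2 pair lay at chr11:47214979-47214999 on the plus strand, 6 to 26 bases after a transcription start, and is shown with its decamers in capitals. It is followed by the 250 bases upstream of the start in 4 other members the results turn on, 5′ to 3′ on the strand of the gene. XPC, RAP2B and FDXR were lower in the WT line and hold a match, in capitals. POLH was the member with the greatest rise and holds none, so it has no capitals. Matches did not go with falls throughout. AEN, FAS, PLK2, SESN1 and CYFIP2 hold a match and did not pass the test below in any line. CCNG1 and TP53I3 fell in WT and hold none, nor does a second window of FDXR.
DDB2 p53 site: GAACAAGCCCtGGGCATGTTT
XPC, chr3:14178602-14178851, minus strand, E2F site in capitals: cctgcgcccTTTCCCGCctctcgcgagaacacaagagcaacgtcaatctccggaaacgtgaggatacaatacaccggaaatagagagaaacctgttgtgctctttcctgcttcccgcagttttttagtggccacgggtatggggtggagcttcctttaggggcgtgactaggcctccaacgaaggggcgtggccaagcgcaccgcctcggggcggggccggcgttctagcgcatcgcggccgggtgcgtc
RAP2B, chr3:153161976-153162225, plus strand, p53 decamer in capitals: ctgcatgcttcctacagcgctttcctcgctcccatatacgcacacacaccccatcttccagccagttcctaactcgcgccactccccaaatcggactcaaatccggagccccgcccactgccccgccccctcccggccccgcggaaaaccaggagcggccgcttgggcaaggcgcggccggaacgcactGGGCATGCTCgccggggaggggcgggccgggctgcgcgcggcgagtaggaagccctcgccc
FDXR, chr17:74872995-74873244, minus strand, p53 decamer in capitals: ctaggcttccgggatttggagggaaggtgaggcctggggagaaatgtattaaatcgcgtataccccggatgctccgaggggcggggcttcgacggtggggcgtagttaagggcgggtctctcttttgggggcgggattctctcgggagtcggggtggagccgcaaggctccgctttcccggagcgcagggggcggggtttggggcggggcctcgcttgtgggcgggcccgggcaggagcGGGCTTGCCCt
POLH, chr6:43575935-43576184, plus strand: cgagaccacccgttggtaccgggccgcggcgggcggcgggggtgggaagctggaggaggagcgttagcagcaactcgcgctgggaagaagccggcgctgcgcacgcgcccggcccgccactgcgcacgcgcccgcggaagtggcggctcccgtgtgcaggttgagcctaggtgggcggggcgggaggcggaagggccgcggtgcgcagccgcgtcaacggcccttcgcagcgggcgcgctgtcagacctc
The capitals mark letters in these windows and were not tested as binding sites in these cells.

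Reads counted on genes ranged from 11500537 to 31040903 per sample, and levels are given as CPM, counts scaled to a common library size by TMM. WT replicate 2 stood apart, with 58.7% of its reads assigned to no counted feature against 23.6% to 29.6% in the other 11 samples. KK replicate 2 correlated with KK replicates 1 and 3 at 0.985 and 0.986 (on log2 CPM over the tested genes) and with R109K replicate 2 at 0.988. KK replicates 1 and 3 correlated with each other at 0.9932. A nearest library in another line was not particular to KK replicate 2. Each WT and KK library correlated best with a library of another line, KK replicates 1 and 3 with a WT replicate at 0.9933. WT replicate 2 and KK replicate 2 were kept, and results that rest on them are given with and without them. E2F1 transcripts were 12.7- to 19.9-fold above pTRE in the 3 E2F1 lines, which includes the transcript of the construct. Of the mesenchymal markers of the osteoblast lineage, 8 of 10 had a mean above 10 counts in pTRE, but COL1A2 was near 0. The markers' summed level was 6784 to 8122 CPM in pTRE and 2645 to 3763 CPM in the E2F1 lines. COL1A1 made up much of that difference (3557 CPM in pTRE and 567 CPM in WT, log2 fold change -2.65). Of the 9 tested, 1 rose and 3 fell in WT, and 1 rose and 5 fell in KK and in R109K, beside the shares of all tested genes given below. Epithelial markers summed to 788 to 976 CPM in pTRE and 372 to 669 CPM in the E2F1 lines, with KRT19 near 0, and 2, 3 and 2 of 7 tested fell in WT, KK and R109K. Blood and endothelial markers summed to 1.20 to 3.19 CPM in any sample. The part of these shifts in the results below was not tested, and in bulk RNA a change in the share of cells cannot be told apart from a change in RNA per cell.

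Against pTRE, 3 of the 31 tested members were higher in the WT line (POLH, PPM1D and KITLG). Another 7 were lower (TP53I3, PHLDA3, CCNG1, FDXR, RAP2B, XPC and DDB2). The threshold was an adjusted p-value below 0.01 (edgeR's quasi-likelihood test, adjusted over 16625 genes). The members passing are 9.68% and 22.6% of those tested, where 14.8% of all tested genes were higher and 11.4% were lower. In KK, the same test passed 3 higher members (POLH, PPM1D and KITLG; 9.68%, against 13.8% of all genes) and 5 lower members (TP53I3, CCNG1, XPC, RAP2B and DDB2; 16.1%, against 10.7%). In R109K it passed 4 higher members (POLH, KITLG, IER5 and PPM1D; 12.9%, against 10.0%) and 1 lower member (TP53I3; 3.23%, against 7.23%). The 3 comparisons share the pTRE samples, so their counts are not independent of each other. A change of more than 2-fold as well was met by POLH in each line (against 7.89%, 7.01% and 4.64% of all genes higher in WT, KK and R109K) and, among those lower, by TP53I3 in WT and no member in KK or R109K (against 3.93%, 3.90% and 2.56% of all genes). The median log2 fold change of the tested members was -0.20 in WT, -0.16 in KK and -0.04 in R109K, beside 0.00, -0.01 and 0.00 for all tested genes. Without WT replicate 2 and KK replicate 2, the members passing were 4 higher and 8 lower in WT (against 16.6% and 13.4% of all genes), 3 and 8 in KK (against 17.0% and 14.7%), and 5 and 3 in R109K (against 14.5% and 12.7%). The 5 members passing in R109K (with all samples 17.3% of all genes passed in either direction) became 3 without pTRE replicate 1 (12.4% of all genes), 2 without pTRE replicate 3 (12.3%) and 2 without R109K replicate 1 (10.8%).

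**Figure D1:**
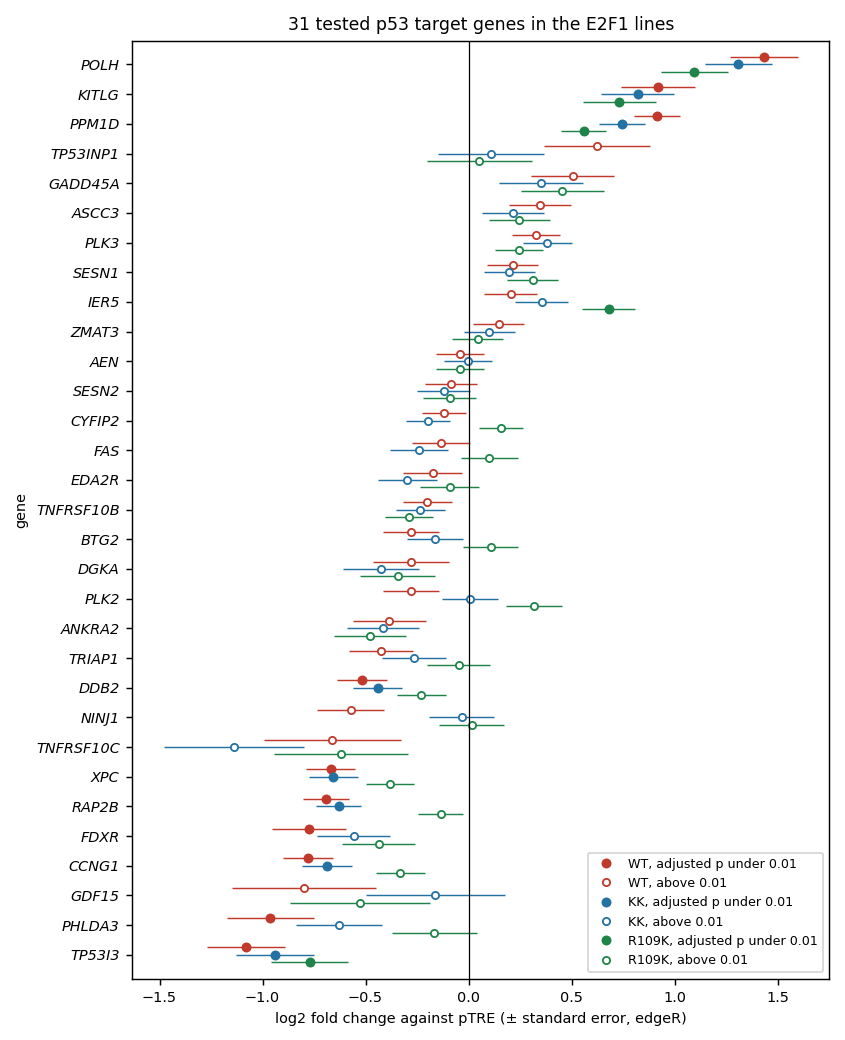
Log2 fold change against pTRE of the 31 tested p53 target genes (points, ± standard error from edgeR) in the WT, KK and R109K lines, with filled points where the adjusted p-value was below 0.01. POLH, KITLG and PPM1D are filled and right of 0 in all 3 lines, and CCNG1, XPC and RAP2B lie farther left in WT and KK than in R109K.

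Counted by replicates that did not overlap, in WT 13 members lay below pTRE in all 3 replicates (41.9% of those tested, against 26.3% of all genes) and 6 lay above (19.4%, against 25.2%). In KK, 10 members lay wholly below (32.3%, against 24.5%) and 6 wholly above (19.4%, against 24.9%). In R109K, 8 lay wholly below (25.8%, against 22.9%) and 9 wholly above (29.0%, against 24.3%). These counts carry no test of their own.

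The members differed widely in level before any comparison. In pTRE and per kilobase of exons, CCNG1 was the most abundant at 59.3 CPM per kb, followed by GADD45A (32.8) and PLK2 (31.9). TRIAP1, FDXR, TNFRSF10B, PHLDA3 and TP53I3 followed between 20.1 and 23.0, and POLH (8.34) and PPM1D (8.57) ranked 20th and 19th of 33. At the low end of the tested members were SESN1 (1.60) and TNFRSF10C (0.983). Below them were SPATA18 (0.0102) and TNFRSF10A (0), which were not tested. In the WT line, by contrast, POLH stood at 22.6 and PPM1D at 16.2 CPM per kb, while CCNG1 stood at 34.5. Exon lengths are those of GENCODE on GRCh37 and may differ from the annotation the counts were made with.

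**Figure D2:**
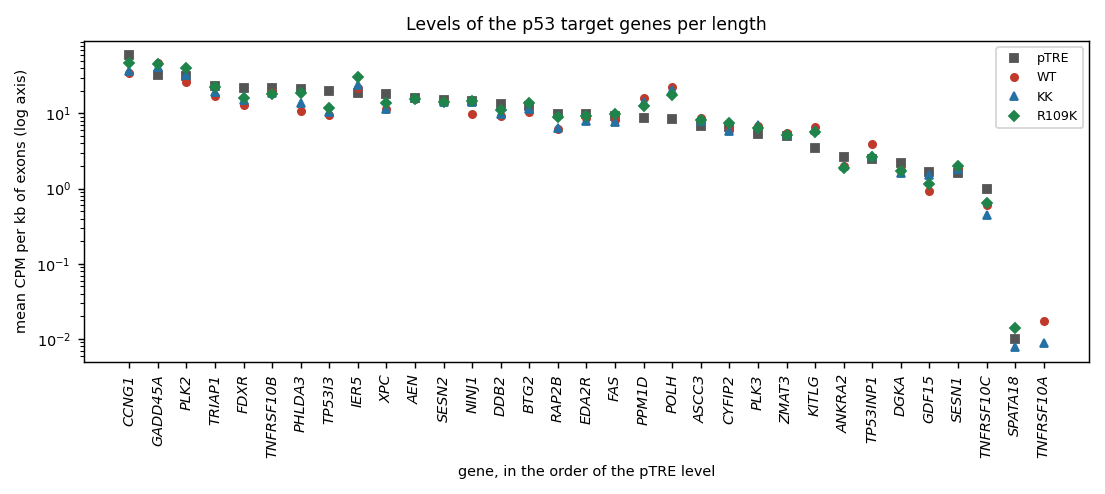
Mean CPM per kilobase of exons (log axis) of the p53 target genes in the 4 lines, ordered by the level in pTRE (n = 3 per line, no error bars). CCNG1 leads at 59.3 in pTRE, POLH and PPM1D lie above their pTRE squares in every E2F1 line, and values of 0 cannot be drawn, which leaves out the pTRE and R109K points of TNFRSF10A and the WT point of SPATA18.

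Among the DNA repair genes, 1 of 4 rose and 2 fell in WT and in KK, while in R109K 1 rose and none fell. POLH, on chromosome 6 (43543922 to 43588260 of GRCh37, plus strand), encodes the translesion polymerase eta, which copies past ultraviolet lesions. Its transcripts stood at 67.7, 69.4 and 72.3 CPM in the pTRE replicates, 154, 254 and 159 CPM in WT, 163, 172 and 184 CPM in KK, and 139, 147 and 162 CPM in R109K. Every E2F1 sample was above every pTRE sample, and the highest was WT replicate 2, the library with most reads assigned to no counted feature. The log2 fold change of POLH was 1.43 in WT (standard error, SE, 0.16 and adjusted p = 7.29e-06), 1.31 in KK (SE 0.16, adjusted p = 1.73e-05) and 1.10 in R109K (0.16, adjusted p = 0.00014). Leaving out 1 replicate at a time moved the WT value between 1.16 and 1.55.

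XPC, on chromosome 3 (14186647 to 14220121, minus strand), encodes the damage sensor of global genome nucleotide excision repair. It stood at 79.9, 81.7 and 89.9 CPM in pTRE and at 49.2, 46.4 and 62.3 CPM in WT. The KK samples were close together at 52.9, 52.6 and 54.2 CPM, and the R109K samples lay between these and pTRE at 61.5, 63.3 and 68.3 CPM. XPC was thus at 62.9% of the pTRE level in WT and 63.5% in KK, with log2 fold changes of -0.67 (SE 0.12, adjusted p = 0.000376) and -0.66 (0.12, adjusted p = 0.000451). The R109K value of -0.38 (0.12, adjusted p = 0.0231) did not pass, although it did with DESeq2 (adjusted p = 0.00935). In edgeR it passed without both WT replicate 2 and KK replicate 2 (adjusted p = 0.00557). The same held with only the 6 samples compared (adjusted p = 0.00865). Of the exon bases of XPC, 24.6% lie opposite exons of other genes, mostly the antisense gene XPC-AS1, and the strand setting of the counting is not given in the sources used here.

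DDB2, on chromosome 11 (47236016 to 47260768, plus strand), encodes the ultraviolet damage binding subunit that hands lesions to XPC. Its levels were 64.7, 59.4 and 67.9 CPM in pTRE, 37.7, 48.4 and 48.1 CPM in WT, 43.1, 50.2 and 48.2 CPM in KK, and 51.0, 55.4 and 57.4 CPM in R109K. All 9 E2F1 samples were below the pTRE range, with R109K nearest to it. The fall was 0.52 on the log2 scale in WT (adjusted p = 0.0031 with edgeR, SE 0.12) and smaller in KK at -0.44 (adjusted p = 0.00913), a call kept in 6 of 19 alternative fits and lost without 9 of the 12 libraries, taken 1 at a time. The WT call was lost without pTRE replicate 1, pTRE replicate 3 or WT replicate 1, with values from -0.52 to -0.42. In R109K it was -0.23 (adjusted p = 0.173). ASCC3, a helicase subunit that acts in alkylation repair, had means of 80.4 CPM in pTRE and 93.3 to 102 CPM in the E2F1 lines and passed in none.

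The negative feedback gene PPM1D, on chromosome 17 (58677554 to 58743641, plus strand), encodes the phosphatase WIP1, which removes activating phosphates from p53 and its kinases. It stood at 79.8, 87.1 and 74.9 CPM in pTRE, 169, 149 and 138 CPM in WT, 142, 131 and 132 CPM in KK, and 123, 122 and 111 CPM in R109K. The E2F1 samples did not overlap pTRE, and R109K lay below both WT and KK in every replicate. The log2 fold change was 0.92 in WT (SE 0.11, adjusted p = 1.38e-05), 0.74 in KK (0.11, adjusted p = 9.7e-05) and 0.56 in R109K (0.11, adjusted p = 0.0015). The R109K call was lost without pTRE replicate 3 (0.51, adjusted p = 0.0101) or R109K replicate 1 (0.53, adjusted p = 0.0111).

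Of the secreted ligands, KITLG rose in each line and GDF15 passed in none. KITLG, on chromosome 12 (88886570 to 88974628, minus strand), encodes stem cell factor, the ligand of the receptor KIT. It stood at 21.7, 25.3 and 17.2 CPM in pTRE, 49.2, 35.5 and 36.6 CPM in WT, 44.2, 32.2 and 36.9 CPM in KK, and 41.3, 35.2 and 30.1 CPM in R109K. No E2F1 sample reached down to the pTRE range. The log2 fold changes of KITLG were 0.92 (SE 0.18, adjusted p = 0.000805), 0.82 (0.18, adjusted p = 0.00194) and 0.73 (0.18, adjusted p = 0.00585) in WT, KK and R109K. The KK call was lost without pTRE replicate 3 (0.68, adjusted p = 0.015) or KK replicate 1 (0.69, adjusted p = 0.0135). The R109K call was lost without any 1 of pTRE replicates 1 and 3 and R109K replicates 1 and 2, with values from 0.60 to 0.74. GDF15, a stress cytokine on chromosome 19 (18485541 to 18499986), was scarce at 2.93, 3.69 and 3.82 CPM in pTRE and 1.85, 1.12 and 2.82 CPM in WT. It ranged from 1.66 to 3.95 CPM in KK and 1.75 to 3.05 CPM in R109K, and the WT log2 fold change of -0.80 (SE 0.35, adjusted p = 0.0816) did not pass.

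Among the sestrins and redox enzymes, TP53I3 and FDXR fell in WT, TP53I3 alone fell in KK and in R109K, and none of the 5 rose. TP53I3 (PIG3), on chromosome 2 (24300303 to 24308731, minus strand), encodes a quinone oxidoreductase that generates reactive oxygen species. Its levels were 43.5, 42.7 and 53.4 CPM in pTRE, 20.1, 16.9 and 28.5 CPM in WT, 20.9, 28.8 and 23.3 CPM in KK, and 21.8, 31.4 and 28.6 CPM in R109K. The highest E2F1 sample lay well below the lowest pTRE sample. WT was at 47.3% of pTRE (log2 fold change -1.08, SE 0.19, adjusted p = 0.000387), KK at 52.2% (-0.94, 0.19, adjusted p = 0.00115) and R109K at 58.6% (-0.77, 0.19, adjusted p = 0.00615). The R109K call was kept in 14 of 19 alternative fits and lost without any 1 of the 3 pTRE replicates, R109K replicate 1 or R109K replicate 3, with values from -0.83 to -0.64.

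FDXR, on chromosome 17 (72858619 to 72869156, minus strand), encodes ferredoxin reductase, the mitochondrial enzyme that feeds electrons to steroid and iron-sulfur cluster synthesis. It stood at 71.8, 77.5 and 88.8 CPM in pTRE, 43.2, 37.9 and 57.7 CPM in WT, 43.6, 69.3 and 49.0 CPM in KK, and 52.0, 64.3 and 59.6 CPM in R109K. Each E2F1 sample was below pTRE, with KK replicate 2 the nearest. The log2 fold change of FDXR was -0.77 in WT (SE 0.18, adjusted p = 0.0031), -0.56 in KK (0.18, adjusted p = 0.0226) and -0.44 in R109K (0.18, adjusted p = 0.0804). The WT call was lost without pTRE replicate 3, WT replicate 1 or WT replicate 2, with values from -0.73 to -0.65 and adjusted p of at most 0.0186. Without KK replicate 2, the KK value was -0.78 and passed (adjusted p = 0.00233). The R109K value passed in edgeR without both WT replicate 2 and KK replicate 2 (-0.44, adjusted p = 0.00665). It also passed with only the 6 samples compared (-0.44, adjusted p = 0.00535).

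The other 3 genes of this group passed in no line. SESN1 and SESN2, whose proteins restrain mTORC1 and oxidative stress, had log2 fold changes between -0.12 and 0.31. TP53INP1, which encodes a nuclear cofactor in stress and autophagy, stood at 14.7, 14.4 and 13.4 CPM in pTRE and at 15.8, 36.0 and 14.7 CPM in WT. Its WT log2 fold change of 0.62 (SE 0.26, adjusted p = 0.0652) rested on WT replicate 2 and was 0.11 without it. In KK and R109K, TP53INP1 ranged from 12.2 to 17.3 CPM.

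Among the genes that brake proliferation, CCNG1 fell in WT and KK and the other 5 passed in no line. CCNG1, on chromosome 5 (162864575 to 162873157, plus strand), encodes cyclin G1, which brings the phosphatase PP2A to MDM2. It stood at 203, 184 and 163 CPM in pTRE, 118, 93.6 and 109.1 CPM in WT, 120, 104 and 118 CPM in KK, and 152, 147 and 139 CPM in R109K. The 4 lines formed an order without overlap between pTRE, R109K and the other 2, while WT and KK overlapped. The log2 fold change was -0.78 in WT (SE 0.12, adjusted p = 0.000133), -0.69 in KK (0.12, adjusted p = 0.000393) and -0.33 in R109K (0.12, adjusted p = 0.0529).

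GADD45A, an inhibitor of CDK1 and a stress sensor, is named here after its values were seen, because 1 library decided its call. It stood at 66.1, 62.5 and 60.9 CPM in pTRE and at 108.99, 59.6 and 99.4 CPM in WT, so that WT replicate 2 alone lay below the pTRE range. Its WT log2 fold change was 0.50 (SE 0.20, adjusted p = 0.0586), and 0.72 without WT replicate 2 (adjusted p = 0.00296). In KK (0.35) and R109K (0.46) every sample was above pTRE and neither value passed. Without both WT replicate 2 and KK replicate 2, the R109K value of GADD45A was 0.45 and passed in edgeR (adjusted p = 0.00383). It also passed with only the 6 samples compared (0.45, adjusted p = 0.00559). PLK2, PLK3, BTG2 and ZMAT3 had log2 fold changes between -0.28 and 0.38 against pTRE in the 3 lines.

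**Figure D3:**
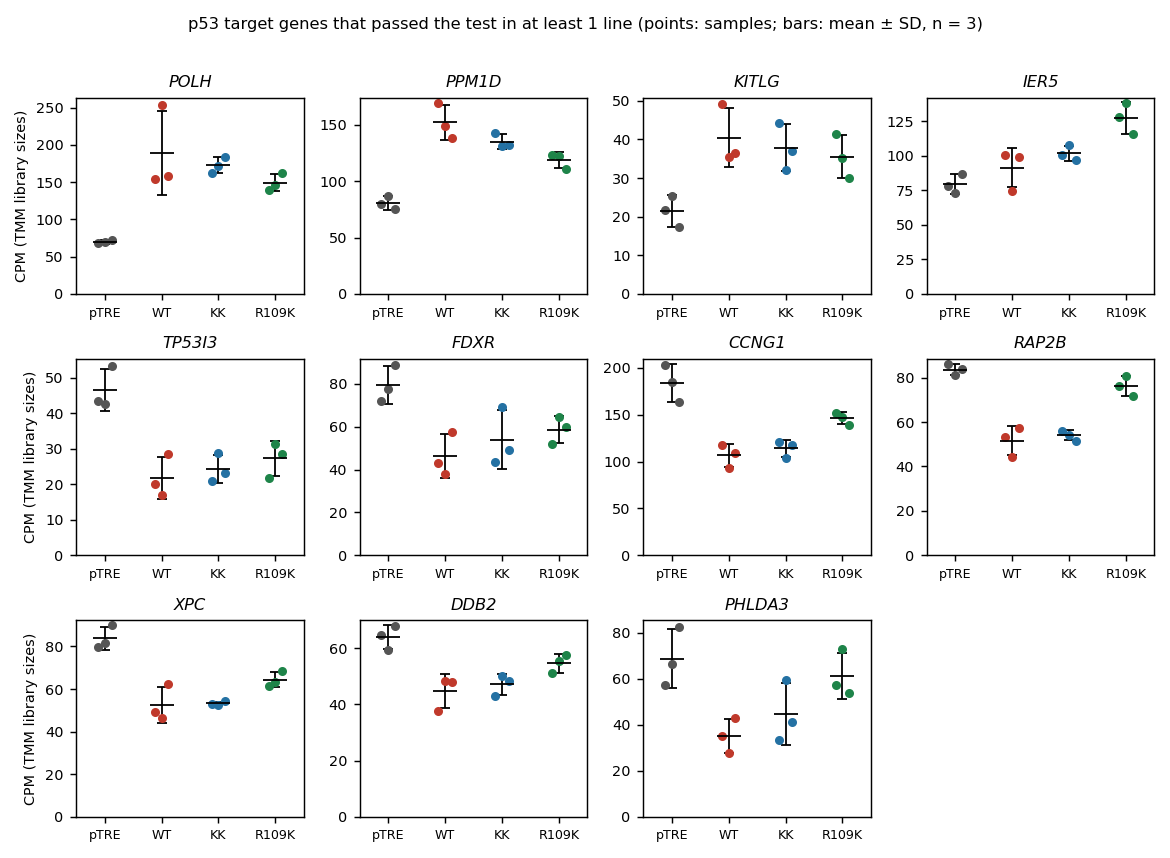
CPM of the 11 p53 target genes that passed the test against pTRE in at least 1 line, with 1 point per sample and bars for mean ± SD (n = 3) on axes that start at 0. POLH, PPM1D and KITLG lie above pTRE in every E2F1 sample, TP53I3 lies below it in every one, and the RAP2B samples of R109K (71.7 to 80.6 CPM) lie above those of WT and KK (44.4 to 57.2 CPM).

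None of the death receptor genes passed in any line. FAS and TNFRSF10B (DR5), receptors that start the extrinsic apoptosis pathway, had means of 32.6 and 109.5 CPM in pTRE, and EDA2R, the receptor of ectodysplasin A2, had 35.4 CPM. Their log2 fold changes ranged from -0.30 to 0.10, and 25.7% of the exon bases of FAS lie opposite other genes. TNFRSF10C, a decoy receptor for TRAIL on chromosome 8 (22960434 to 22974958), was near the limit of detection at 1.16, 1.71 and 1.69 CPM in pTRE. It stood at 0.855, 0.642 and 1.30 CPM in WT, 0.484, 0.768 and 0.829 CPM in KK, and 0.940, 1.13 and 0.901 CPM in R109K. The KK and R109K samples lay below pTRE, from means of 39.7 reads in pTRE, 17.0 in KK and 27.3 in R109K. The log2 fold changes of -1.14 in KK (SE 0.34, adjusted p = 0.0158) and -0.62 in R109K (0.32, adjusted p = 0.177) did not pass, and that of KK did without WT replicate 2 (adjusted p = 0.00614). Of its exon bases, 33.01% overlap other genes on the same strand. TNFRSF10A had at most 2 reads in any sample, so a change was not detectable at this depth.

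Of the other apoptosis and survival genes, PHLDA3 fell in WT and no other passed. PHLDA3, on chromosome 1 (201433406 to 201438365, minus strand), encodes a pleckstrin homology domain protein that competes with AKT for membrane lipids. It stood at 57.4, 66.2 and 82.5 CPM in pTRE, 34.9, 27.5 and 42.7 CPM in WT, 33.2, 59.4 and 41.0 CPM in KK, and 57.1, 72.7 and 53.8 CPM in R109K. The WT samples lay below pTRE, KK replicate 2 lay within the pTRE range, and R109K overlapped it. The log2 fold change of PHLDA3 was -0.96 in WT (SE 0.21, adjusted p = 0.00213), -0.63 in KK (0.21, adjusted p = 0.028) and -0.17 in R109K (0.21, adjusted p = 0.606). The WT value was -0.81 and did not pass (adjusted p = 0.0156) without pTRE replicate 3. Without KK replicate 2, KK was at -0.89 and passed (adjusted p = 0.00304). An annotated noncoding gene on the same strand covers 18.4% of its exon bases. AEN, a p53-induced nuclease, TRIAP1, an apoptosome inhibitor, and CYFIP2, a subunit of the WAVE complex, had log2 fold changes between -0.42 and 0.16. SPATA18 had at most 3 reads in a sample.

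In the group of signalling and other genes, RAP2B fell in WT and KK, and IER5 rose in R109K. RAP2B, on chromosome 3 (152880015 to 152888416, plus strand), encodes a small GTPase of the RAS family. It stood at 86.2, 80.9 and 83.7 CPM in pTRE and at 76.2, 80.6 and 71.7 CPM in R109K, and well below both at 53.3, 44.4 and 57.2 CPM in WT and 56.1, 54.2 and 51.7 CPM in KK. WT was at 61.9% of pTRE (log2 fold change -0.69, SE 0.11, adjusted p = 0.000165) and KK at 64.6% (-0.63, 0.11, adjusted p = 0.000362). R109K was at 91.1% (-0.13, 0.11, adjusted p = 0.40). IER5, on chromosome 1 (181057836 to 181062036, plus strand), encodes a regulator of heat shock factor 1. Its levels were 78.0, 73.1 and 87.1 CPM in pTRE, 100, 74.8 and 98.8 CPM in WT, 101, 108 and 96.6 CPM in KK, and 128, 138 and 115 CPM in R109K. R109K was above every other sample, and WT overlapped pTRE through WT replicate 2. The log2 fold change of IER5 was 0.68 in R109K (SE 0.13, adjusted p = 0.001), 0.36 in KK (0.13, adjusted p = 0.0408) and 0.20 in WT (0.13, adjusted p = 0.217).

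NINJ1, DGKA and ANKRA2 completed this group and did not pass in any line. NINJ1, which ruptures the plasma membrane of dying cells, is named after its values were seen. It stood at 32.6, 36.0 and 45.2 CPM in pTRE and 24.3, 23.8 and 28.4 CPM in WT, without overlap. Its WT log2 fold change of -0.57 (SE 0.16, adjusted p = 0.0106) lay just outside the threshold with edgeR and inside it with DESeq2 (adjusted p = 0.00445). KK (-0.03) and R109K (0.02) were close to pTRE. DGKA, a diacylglycerol kinase, and ANKRA2, an ankyrin repeat protein, had log2 fold changes between -0.48 and -0.28 over the 3 lines.

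Set directly against each other, the E2F1 lines gave 0 members past the test in edgeR. For R109K against WT, 0.150% of all tested genes were higher and 0.559% lower, for R109K against KK 0.0541% and 0.0782%, and for KK against WT 0% and 0.0120%. At an unadjusted p-value below 0.05 in edgeR, 13, 8 and 2 of the 31 tested members passed in these comparisons. The shares of all tested genes were 22.3%, 12.4% and 8.51%. DESeq2 passed 3, 1 and 0 of these 31 members at an adjusted p-value below 0.01. Of all genes to which it gave an adjusted p-value, 3.39%, 1.59% and 0.0483% passed. Without overlap of replicates, 10 members were higher in R109K than in WT (32.3% of those tested, against 13.1% of all genes) and 2 were lower (6.45%, against 14.0%). Between R109K and KK, 8 were higher (25.8%, against 9.56%) and 2 lower (6.45%, against 11.4%). Between KK and WT, 2 were higher (6.45%, against 4.81%) and 0 lower (against 5.16%). The 3 direct comparisons share samples with each other and with those against pTRE. E2F1 RNA also differed in level, at 1469 to 2315 CPM in WT, 1112 to 1478 CPM in KK and 932 to 1283 CPM in R109K, and its part in these differences was not tested.

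RAP2B came nearest to the threshold. In R109K it was 1.47-fold above WT (log2 fold change 0.56, SE 0.11, adjusted p = 0.0142 with edgeR and 0.00013 with DESeq2) and 1.41-fold above KK (0.50, 0.11, adjusted p = 0.0425 with edgeR and 0.00176 with DESeq2), without overlap in either case. Without WT replicate 3, the difference from WT passed in edgeR (0.64, adjusted p = 0.0087). Without both WT replicate 2 and KK replicate 2, the difference from KK passed in edgeR (0.50, adjusted p = 0.00986). PLK2, a polo-like kinase of the centrosome and of stress responses, is named after its values were seen. It stood at 192, 190 and 173 CPM in R109K and 139, 99.2 and 128 CPM in WT, a log2 fold change of 0.60 (SE 0.14, adjusted p = 0.0274 with edgeR and 0.00157 with DESeq2). CCNG1 was 1.37-fold higher in R109K than in WT (0.45, SE 0.12, adjusted p = 0.0543 with edgeR and 0.00861 with DESeq2). PHLDA3 had the greatest difference, 0.80 (SE 0.21, adjusted p = 0.0515), and PPM1D differed the other way at -0.36 (0.11, adjusted p = 0.0849). RAP2B in KK and WT differed by 0.06 (SE 0.11, adjusted p = 0.843), which does not show that the lines had equal levels.

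**Figure D4:**
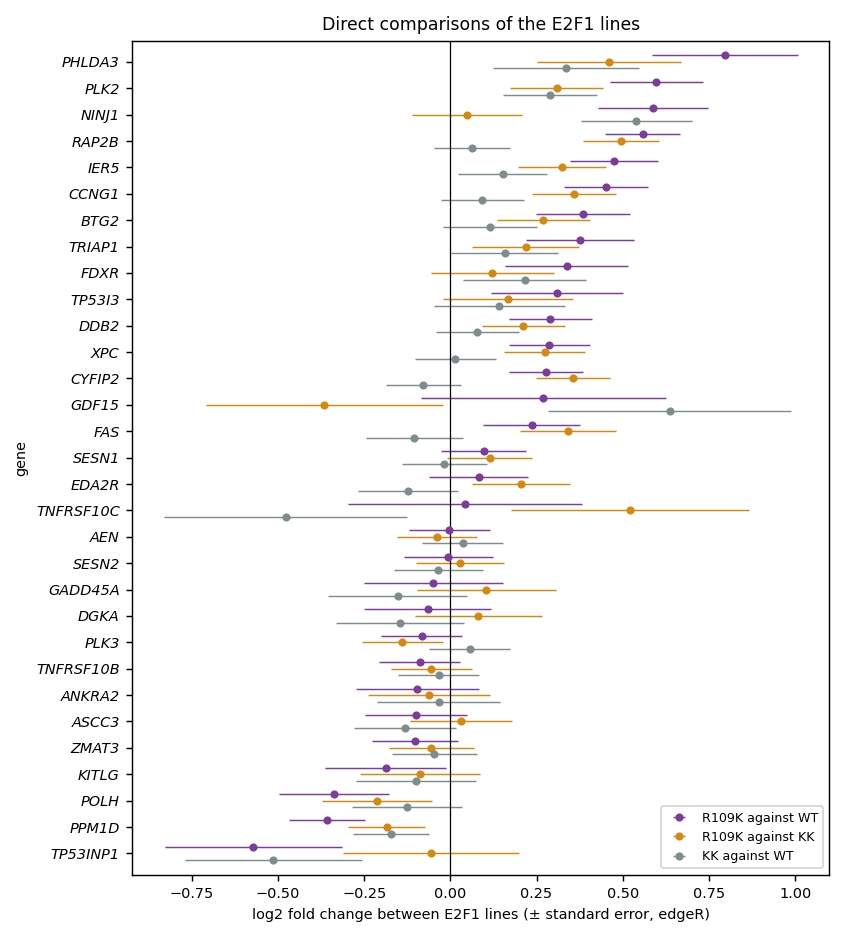
Log2 fold change (points, ± standard error from edgeR) of the 31 tested p53 target genes for R109K against WT, R109K against KK and KK against WT. PHLDA3, PLK2, NINJ1 and RAP2B lie farthest right for R109K against WT (0.56 to 0.80), and no point passed an adjusted p-value of 0.01.

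Some genes that act on or beside p53 also changed. MDM2, itself a p53 target, rose in WT (0.68, adjusted p = 0.00446) and R109K (0.65, adjusted p = 0.00846) and was at 0.49 in KK (adjusted p = 0.0299). TP73, a p53 relative and known E2F1 target, rose by 2.34 to 2.53 on the log2 scale in the 3 lines. PPP1R13B, which encodes the p53 cofactor ASPP1, rose by 1.58 in WT, 1.54 in KK and 0.97 in R109K. CDKN2A had at most 1 read in any sample.

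**Figure D5:**
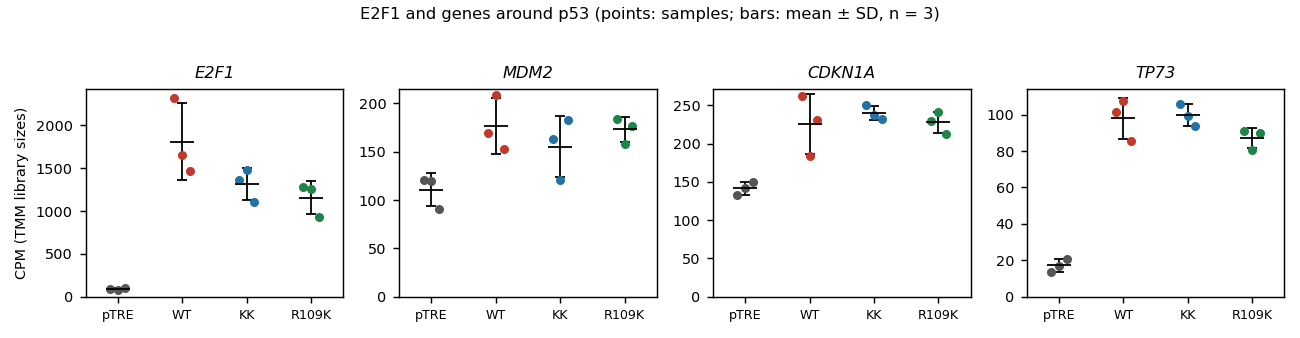
CPM of E2F1, MDM2, CDKN1A and TP73 in each sample, with bars for mean ± SD (n = 3 per line) on axes that start at 0. CDKN1A lies between 133 and 151 CPM in pTRE and at 183 CPM or more in the E2F1 samples, while TP73 rises from at most 20.9 CPM in pTRE to at least 80.6 CPM.

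The p53 target genes outside the 33 were split as well. CDKN1A, which encodes the CDK inhibitor p21, rose by 0.67 in WT (SE 0.13, adjusted p = 0.000756), 0.76 in KK (0.13, adjusted p = 0.000275) and 0.68 in R109K (0.13, adjusted p = 0.000958). Of 28 tested genes of that list, which includes CDKN1A and MDM2, 7 rose and 5 fell in WT, 6 rose and 4 fell in KK, and 4 rose and 3 fell in R109K, with medians of -0.07, -0.05 and 0.00. For this list and those below, the shares of all tested genes were 14.8% higher and 11.4% lower in WT. They were 13.8% and 10.7% in KK, and 10.0% and 7.23% in R109K. E2F7, a repressor that is also an E2F target, and APAF1, the core of the apoptosome, rose in WT by 1.63 and 1.39. LIF, a cytokine of the interleukin-6 family, fell by 1.48 on the log2 scale. Of 22 E2F cell cycle targets, 6 rose and 4 fell in WT, 8 and 5 in KK, and 9 and 2 in R109K. Immediate early genes, several of which respond to handling and serum, passed as higher in 6, 4 and 2 of 14 tested in WT, KK and R109K and as lower in none. Integrated stress response genes passed as lower in 3, 1 and 0 of 13 and as higher in none. Interferon-stimulated genes passed as higher in 2, 2 and 2 and as lower in 3, 2 and 3 of 13.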

How the data were processed

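RNA-seq was analysed in 12 samples, 3 of each of 4 lines. The authors trimmed reads with Trim Galore 0.4.3, aligned them to hg19 with STAR 2.5.1 and deposited whole-number counts of reads per gene symbol, 1 table per sample, with 5 summary lines that were left out of library sizes (34.3% to 68.8% of reads). The methods credit the counts to the aligner, while the summary lines have the form of htseq-count output, and annotation version and strand setting are not given in the sources used here. Libraries were made with a directional kit.

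Counts were tested with edgeR 4.0.16 in R 4.3.3. filterByExpr by line kept 16625 genes (31 of 33 members), TMM scaled the libraries, and all samples entered 1 quasi-likelihood fit with a term for each line (common dispersion 0.0239). Benjamini-Hochberg adjustment covered all tested genes, with 0.01 as threshold. Fold changes use a prior count, and standard errors were derived from the test. DESeq2 1.42.0, RLE scaling, other filters, the 6 samples compared alone, a replicate block, left-out samples and other thresholds were alternatives. The replicates are described as biological, and whether each was a separate culture is not stated, so p-values measure the spread between these samples, which may be technical. No sample pair was identical.

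Deviations from the line means correlated at 0.0436 on average over the 18 same-numbered pairs (-0.295 to 0.470, above 0.1 in 5), so the number was no block. The members and lists were chosen with earlier results of these data known. Values per sample were given for members passing in any comparison, or with all replicates outside pTRE and a change over 1.5-fold, and others are named as chosen after their values were seen. The test was checked on simulated data.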

Additional observations from a re-analysis of the deposited data

Results flagged for a closer look

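CYFIP2, a subunit of the WAVE complex, stood at 66.3, 72.8 and 71.0 CPM in pTRE, 61.4, 56.5 and 65.4 CPM in KK and 77.8, 74.7 and 82.0 CPM in R109K. All 3 R109K samples (mean 78.2 CPM) lay above pTRE and all 3 KK samples lay below it. The samples of the 2 lines lay on opposite sides of the same control, which is why the gene is listed. In edgeR neither line passed against pTRE. The log2 fold change was -0.20 in KK (adjusted p = 0.171) and 0.16 in R109K (adjusted p = 0.303). Of all tested genes, 24.5% lay wholly below pTRE in KK and 24.3% wholly above it in R109K. The share that did both was not counted. The difference of R109K from KK was 0.36 on the log2 scale (unadjusted p = 0.0048 and adjusted p = 0.13 in edgeR's test over all genes), so it did not pass.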

How the results depend on the processing

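Over 186 member comparisons and 3528 alternative values, 3463 kept their direction and side of the threshold, 34 lost a call, 31 gained one and 0 reversed. With the study's 2-fold limit, 2 members passed in WT, 1 in KK and 1 in R109K, and with edgeR's glmTreat against 1.5-fold 1, 1 and 0 passed. An adjusted p below 0.05 passed 13 in WT, 13 in KK and 6 in R109K. Between E2F1 lines it passed 2 for R109K against WT, 1 for R109K against KK and 0 for KK against WT. Where no share of all genes at the same setting is given above, the counts here show only how the calls moved with the setting. DESeq2 passed 3 for R109K against WT and 1 for R109K against KK. Fitting only the 6 samples compared passed 8 in R109K. Leaving out both WT replicate 2 and KK replicate 2, an alternative chosen after seeing the data, passed 8 in R109K and 1 for R109K against KK. Leaving out 1 replicate at a time gave 7 to 11 members in WT, 6 to 10 in KK, 2 to 5 in R109K, 0 to 1 for R109K against WT and 0 in the other comparisons. In R109K the lowest counts came without pTRE replicate 1 (3), pTRE replicate 3 (2) and R109K replicate 1 (2). The medians then ranged from -0.26 to -0.16, -0.25 to -0.12 and -0.08 to 0.01 in WT, KK and R109K. A replicate block left 11, 9 and 5 members passing against pTRE and 0 between E2F1 lines. By their deviations from the line means, 7 of 12 samples were closest to a sample of their own number in another line, a hint from the data and not from the design, and the correlation was not above 0.1 in every pair. The causes of these shifts were not tested, except that fewer samples or a stricter threshold lower a count by construction. Low counts limit TNFRSF10C and GDF15.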
